A study of Mus musculus with 10 samples.

Results

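Potassium channel genes were examined for Polycomb group (PcG) peaks in mouse embryonic stem cells (ESCs) and neural stem cells (NSCs). They were taken as every autosomal protein-coding gene whose symbol begins with Kcn in the GENCODE annotation of mm9. This rule gave 94 annotated genes among 21418 autosomal protein-coding genes. It used no measured value, but the members were chosen with earlier results of these data known. The 94 genes carry 92 symbols, because Kcnb2 and Kcnh8 are each annotated as 2 separate genes. By their names, 41 are voltage-gated channels, 15 inward rectifiers, 14 two-pore channels, 5 calcium-activated channels and 3 sodium- or pH-activated channels. The other 16 are auxiliary or regulatory subunits, so 78 of the 94 encode subunits of the family that forms the pore.

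PcG proteins and their histone mark were mapped by ChIP-seq after formaldehyde fixation. Per the study's methods, cells for Ring1b were first fixed with EGS, a longer cross-linker, and separate inputs served Ring1b in ESCs and NSCs, so the Ring1b lists differ from the others in preparation as well as target. The ESCs were of the mouse line J1, grown on inactivated fibroblast feeders with serum and leukemia inhibitory factor, and depleted of feeders before harvest. The NSCs were obtained from J1 ESCs by differentiation in culture and grown on gelatin in NS media with EGF and FGF. All cells were of the J1 strain under standard growth conditions, with no added treatment. The ESC libraries were Ring1b, Cbx2, Ezh2 and H3K27me3, and the NSC libraries were Ring1b and H3K27me3, with 1 library for each. No difference between the lists therefore has a replicate check, and NSCs stand for 1 line derived in vitro.

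The lists give where each peak begins and ends and nothing else, so peaks have no height, and the depth of the libraries is unknown. A gene counted as marked when a peak lay within 1 kb of its annotated start site. A start without a peak is one where no window passed the authors' threshold, which does not show that the protein or mark was absent. The lists held 2335 (ESC Ring1b), 1033 (ESC Cbx2), 1173 (ESC Ezh2), 2192 (ESC H3K27me3), 1389 (NSC Ring1b) and 1647 (NSC H3K27me3) peaks. Of the genes chosen to check the cell labels, none of the 6 pluripotency genes had an ESC peak at its start, and of the 6 neural stem cell genes found, Nes, Olig2 and Pax6 had ESC Ring1b and no NSC Ring1b. Sall4, a pluripotency gene, had NSC H3K27me3, and the other pluripotency genes had no NSC peak. Sox2, which ESCs and NSCs both express, had H3K27me3 within 1 kb of its start in both cell types. Fabp7 and Slc1a3, also neural stem cell genes, had no peak in any list, nor had the neuron genes Neurod1, Tubb3 and Dcx. Among genes of other lineages, Hoxb9, Gata6 and Pax7 had a peak in every list. T had one in every list but NSC Ring1b, and Gata4 in NSC H3K27me3 only.

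Potassium channels let potassium ions leave or enter cells and set the resting potential and the shape of action potentials. Voltage-gated channels open on depolarization, inward rectifiers pass current more readily into the cell, and two-pore channels carry background or leak current. PcG proteins act in 2 complexes, PRC2, in which Ezh2 methylates histone H3 on lysine 27, and PRC1, which holds Ring1b and a Cbx protein such as Cbx2. They keep developmental genes repressed in ESCs, and in mammals their binding sites are rich in unmethylated CpG dinucleotides.

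The 300 bases before the start site of 5 Kcn genes are shown as examples of CpG content at these promoters. Kcnj4 was the only Kcn gene with Ring1b at its start in both cell types. Kcnk9, Kcna1 and Kcnc2 had the widest ESC Ring1b peaks among the genes marked in at least 3 ESC lists that had no NSC Ring1b peak. Kcnk16 had no peak and the lowest CpG ratio of the Kcn genes, and was chosen after its values were seen. The sequences are from the mm9 genome (NCBIM37), written from 5′ to 3′ on the strand of the gene, with every CG in capitals. The stretches are chr15:79335672-79335971 (minus strand, Kcnj4), chr15:72376710-72377009 (minus, Kcnk9), chr6:126595820-126596119 (minus, Kcna1), chr10:111707879-111708178 (plus, Kcnc2) and chr14:21088385-21088684 (minus, Kcnk16).
Kcnj4: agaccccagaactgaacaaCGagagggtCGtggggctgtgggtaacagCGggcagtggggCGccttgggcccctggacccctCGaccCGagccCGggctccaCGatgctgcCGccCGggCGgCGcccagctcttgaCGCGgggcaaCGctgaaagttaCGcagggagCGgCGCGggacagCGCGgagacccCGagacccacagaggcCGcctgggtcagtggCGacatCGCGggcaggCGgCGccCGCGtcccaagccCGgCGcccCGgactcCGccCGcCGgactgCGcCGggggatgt
Kcnk9: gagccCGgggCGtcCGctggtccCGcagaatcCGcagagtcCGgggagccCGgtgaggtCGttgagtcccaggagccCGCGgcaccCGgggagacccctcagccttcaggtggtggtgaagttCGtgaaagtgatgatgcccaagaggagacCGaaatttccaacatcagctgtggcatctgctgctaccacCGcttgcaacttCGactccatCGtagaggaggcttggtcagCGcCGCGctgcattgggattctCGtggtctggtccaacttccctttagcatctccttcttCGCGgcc
Kcna1: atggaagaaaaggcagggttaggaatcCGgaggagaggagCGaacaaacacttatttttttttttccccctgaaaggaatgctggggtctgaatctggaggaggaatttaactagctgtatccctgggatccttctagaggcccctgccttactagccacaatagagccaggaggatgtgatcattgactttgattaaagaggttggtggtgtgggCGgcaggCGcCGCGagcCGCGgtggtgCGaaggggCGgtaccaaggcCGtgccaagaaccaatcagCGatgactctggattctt
Kcnc2: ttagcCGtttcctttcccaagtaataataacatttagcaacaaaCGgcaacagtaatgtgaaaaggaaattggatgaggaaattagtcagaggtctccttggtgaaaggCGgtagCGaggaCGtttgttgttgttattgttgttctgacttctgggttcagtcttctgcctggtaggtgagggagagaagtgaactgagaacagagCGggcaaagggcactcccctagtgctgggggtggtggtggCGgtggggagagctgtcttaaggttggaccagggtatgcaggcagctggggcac
Kcnk16: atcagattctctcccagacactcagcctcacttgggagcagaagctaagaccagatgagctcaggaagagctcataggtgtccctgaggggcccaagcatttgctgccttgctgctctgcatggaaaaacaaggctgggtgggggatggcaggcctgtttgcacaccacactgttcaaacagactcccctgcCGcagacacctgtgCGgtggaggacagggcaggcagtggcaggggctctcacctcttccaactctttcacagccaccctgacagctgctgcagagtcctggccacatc

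CG reads the same on both strands. Kcnj4 held 38 CG in its 300 bases, and 4.45% of all other protein-coding genes held as many or more. Kcnk9 held 22 (reached by 22.3% of other genes), Kcna1 12 (45.1%), Kcnc2 7 (59.2%) and Kcnk16 2 (85.9%). The range over all Kcn genes was wider than in the sequences shown. Kcnh2, which had no peak, held 48 CG, and Kcnma1, also without a peak, held 0. Kcnk9, Kcna1 and Kcnc2, shown for their wide ESC Ring1b peaks, thus ranged from 22 CG to 7. They do not stand for all wide Kcn peaks. Kcnd3, marked in fewer ESC lists and not shown, held 34 CG and had an ESC Ring1b peak as wide as that of Kcnc2 (3400 bp). The median was 12 CG over the 94 Kcn genes and 10 over the other 21324 genes.

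At least 1 of the 6 lists marked 38 of the 94 Kcn genes (40.4%, 95% Clopper-Pearson interval 30.4% to 51%). Among all other protein-coding genes the same was true of 2296 (10.8%). The intervals cover counting error over genes only. Nearly all marked Kcn genes were marked in ESCs (36 genes, 38.3%, against 9.72% of the others), and 35 of them had Ring1b or H3K27me3 there. Of the 38, 16 were in 1 list, 10 in 2, 7 in 3 and 5 in 4, and none was in more than 4.

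**Figure D1:**
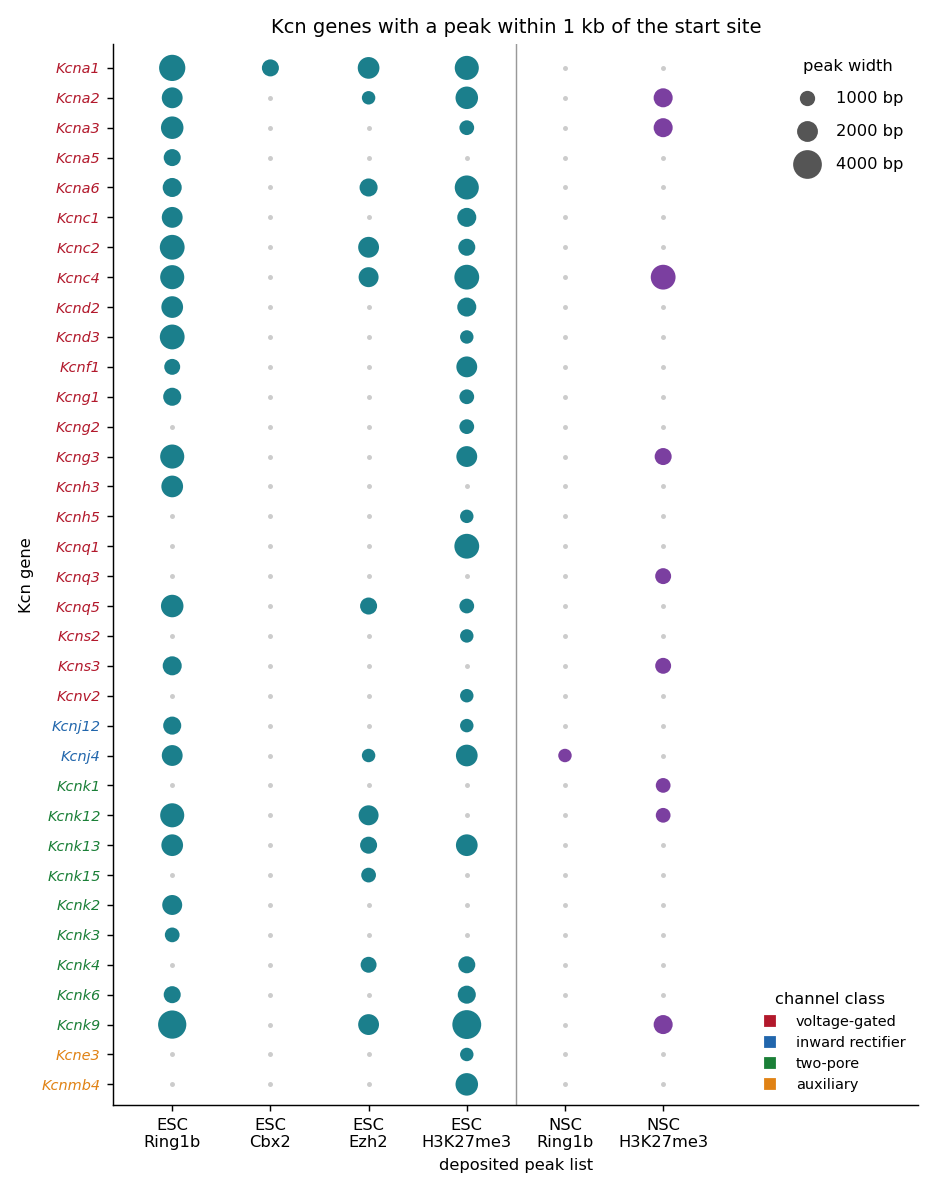
Each row is one of 35 Kcn genes with a peak within 1 kb of its start site, coloured by channel class, and each column is a deposited peak list. The area of a circle is proportional to the width of the peak, and small grey dots stand for no peak. ESC Ring1b (24 of the genes drawn) and ESC H3K27me3 (26) fill most of the plot, while ESC Cbx2 marks Kcna1 alone and NSC Ring1b marks Kcnj4 alone.

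Ring1b marked the start of 27 Kcn genes in ESCs (28.7%, 95% interval 19.9% to 39%), against 8.13% of all other protein-coding genes. H3K27me3 marked 26 (27.7%, 18.9% to 37.8%), against 6.45%. Ezh2 marked 12 (12.8%, 6.77% to 21.2%), against 3.56%. For these 3 targets the lower end of the Kcn interval lay above the share of the other genes. For Ezh2 this no longer held with peaks at least 2 kb wide (5.32%, 1.75% to 12%, against 1.94%). Cbx2 differed, as it marked 1 Kcn gene, Kcna1 (1.06%, 0.0269% to 5.79%), against 1.65%, a share near the background. All 4 ESC lists met at Kcna1 only (1.06%), against 1.32% of the other genes.

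Kcn genes bound by Ring1b also carried H3K27me3 about as often as other genes, in 18 of 27 cases (66.7%, 46% to 83.5%), against 61% of other Ring1b genes. Ezh2 was present at 10 of the 27 (37%, 19.4% to 57.6%), against 41.8%. Cbx2 was present at 1 of the 27 (3.7%, 0.0937% to 19%), against 19.2% of other Ring1b genes, a value just above the upper end of the Kcn interval. Among the 12 Ezh2 genes, Cbx2 was present at 1 (8.33%, 0.211% to 38.5%), against 41.1%. Kcn starts were thus seldom in the Cbx2 list even where Ring1b or Ezh2 was called. Both contrasts rest on 1 gene, with the share of the others just above the Kcn interval, and were not recomputed under the alternative settings.

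**Figure D2:**
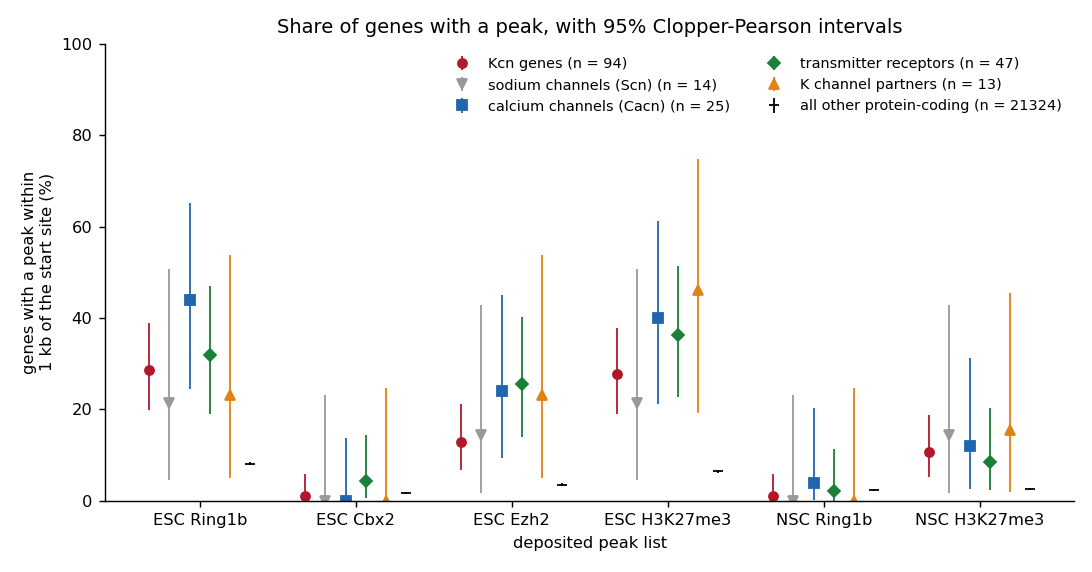
Points give the percentage of genes with a peak within 1 kb of the start site in each deposited list, for Kcn genes, 4 other lists of genes for channels, receptors and partners, and all other protein-coding genes. Vertical lines are 95% Clopper-Pearson intervals over genes. In ESC Ring1b the Kcn share is 28.7% against 8.13% of all other genes, and in ESC Cbx2 it is 1.06% against 1.65%.

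Other genes of neuronal excitability had shares of the same order. ESC Ring1b marked 11 of 25 voltage-gated calcium channel genes (44%), 15 of 47 glutamate, GABA and glycine receptor genes (31.9%) and 3 of 14 voltage-gated sodium channel genes (21.4%). Among 13 partners of potassium channels that are not named Kcn, 3 had ESC Ring1b, namely Hcn4, a pacemaker channel, and Lrrc26 and Lrrc38, subunits that modulate the large-conductance calcium-activated channel. H3K27me3 marked 6 of these 13 in ESCs, among them Abcc8, the sulfonylurea receptor that pairs with an inward rectifier. Few Cbx2 peaks were not particular to Kcn genes. Cbx2 marked 0 of 25 calcium channel genes, 0 of 14 sodium channel genes, 0 of 13 partners and 2 of 47 receptor genes (4.26%). The Kcn intervals overlapped those of all 4 lists in every one of the 6 peak lists, and no difference from these genes was tested.

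The marked Kcn genes were unevenly spread over the channel classes. Peaks in at least 1 list were found at 25 of 41 voltage-gated genes (61%, 44.5% to 75.8%) and at 9 of 14 two-pore genes (64.3%, 35.1% to 87.2%). They were found at 2 of 15 inward rectifiers (13.3%, 1.66% to 40.5%), at 2 of 16 auxiliary genes (12.5%, 1.55% to 38.3%) and at none of the 5 calcium-activated and 3 sodium- or pH-activated genes. The share of all other protein-coding genes was 10.8%, so the inward rectifiers and auxiliary genes were near the background. For peaks in at least 1 list, the voltage-gated interval did not overlap that of the inward rectifiers or that of the auxiliary genes. In single lists it stayed apart only for ESC Ring1b against the auxiliary genes (30.7% to 62.6%, against 0% to 20.6%). The ESC Ring1b interval of the inward rectifiers (1.66% to 40.5%) overlapped it. For ESC H3K27me3 the voltage-gated interval (28.5% to 60.3%) overlapped those of the inward rectifiers (1.66% to 40.5%) and auxiliary genes (1.55% to 38.3%). With 5 and 3 genes, the counts of 0 allow shares of up to 52.2% and 70.8%.

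**Figure D3:**
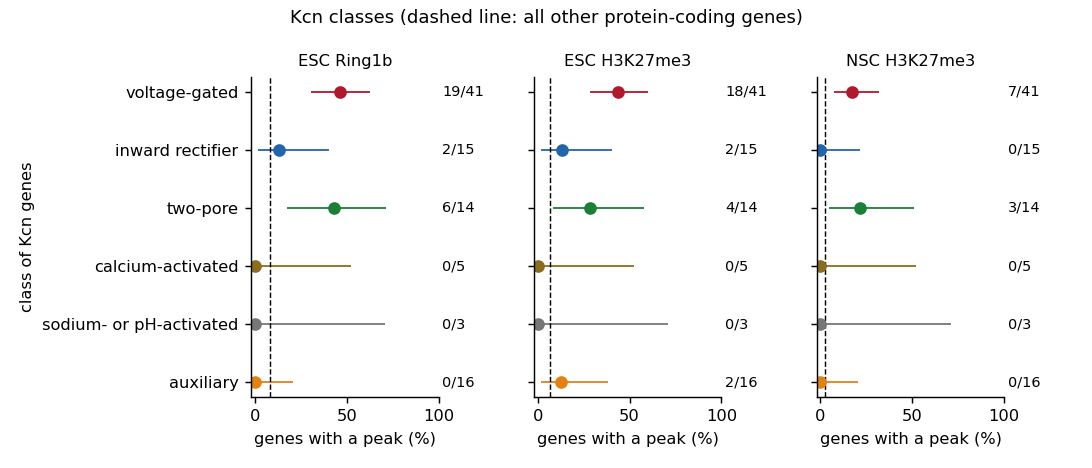
Points are the percentage of genes of each Kcn class with a peak within 1 kb of the start site in ESC Ring1b, ESC H3K27me3 and NSC H3K27me3, with 95% Clopper-Pearson intervals and the counts at the right of each panel. The dashed line is the share of all other protein-coding genes. Voltage-gated genes (19 of 41 with ESC Ring1b) and two-pore genes (6 of 14) lie to the right of the line, and no auxiliary gene has ESC Ring1b.

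Among voltage-gated genes, the Kcna family of shaker-type channels had 5 of 8 genes marked, all 5 with ESC Ring1b, against 10.8% and 8.13% of all other genes. The Kcnc family, whose channels let neurons fire at high rates, had ESC Ring1b and H3K27me3 at Kcnc1, Kcnc2 and Kcnc4. Kcnd2 and Kcnd3, which carry transient A-type current in neurons and heart, both had ESC Ring1b and H3K27me3 and no Ezh2.

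In the Kcnq family, Kcnq5 had ESC Ring1b, Ezh2 and H3K27me3 at its start. Kcnq1, a channel of heart and epithelia, had ESC H3K27me3 only. Kcnq3, a subunit of the M channel that restrains firing of neurons, had NSC H3K27me3 only.

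The modifier families Kcnf, Kcng, Kcns and Kcnv encode subunits that form no channel alone and alter other voltage-gated channels. They had peaks at 7 of 10 genes, 4 with ESC Ring1b and 6 with ESC H3K27me3, against 10.8%, 8.13% and 6.45% of all other genes. None had Ezh2, which with 10 genes cannot be told from the 3.56% of all other genes. In the Kcnh family 2 of 9 genes were marked, against the same 10.8%, Kcnh3 with ESC Ring1b and Kcnh5 with ESC H3K27me3. One entry, Kcng2 with ESC H3K27me3, is annotated over 705 bp only, so its annotated start may not be that of the whole gene.

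Of the two-pore genes, Kcnk9 and Kcnk13 had ESC Ring1b, Ezh2 and H3K27me3. Kcnk12, a close relative of Kcnk13, had Ring1b and Ezh2 in ESCs and H3K27me3 in NSCs. Kcnk2 and Kcnk3, which encode a mechanosensitive and an acid-sensitive leak channel, had ESC Ring1b only, and Kcnk6 had ESC Ring1b and H3K27me3. Kcnk4, another mechanosensitive channel, and Kcnk15 had ESC Ezh2 without Ring1b, and Kcnk4 alone of the pair had H3K27me3. Thus 5 of the 12 Ezh2 genes were two-pore genes, which is 35.7% of that class (12.8% to 64.9%), against 3.56% of all other genes. This interval overlapped that of the voltage-gated genes (14.6%, 5.57% to 29.2%). Kcnk4 and Kcnk15 were the only 2 Ezh2 genes without Ring1b. Ring1b was present at 83.3% of the Kcn Ezh2 genes (51.6% to 97.9%), an interval that holds the 95.4% of other Ezh2 genes.

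The 2 marked inward rectifiers, Kcnj4 and Kcnj12, encode subunits of the strongly rectifying channels of heart, muscle and brain, and both had ESC Ring1b and H3K27me3. The 2 marked auxiliary genes, Kcne3 and Kcnmb4, had ESC H3K27me3 only. Kcne3 encodes a small membrane partner of Kcnq1. Kcnmb4 encodes a brain subunit of the large-conductance calcium-activated channel, and the gene of that channel itself, Kcnma1, had no peak.

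The other 56 Kcn genes had no peak within 1 kb of the start in any list. They were 16 voltage-gated entries (among them Kcna4, Kcna7, Kcna10, Kcnb2, Kcng4, Kcnh1, Kcnh2, Kcnh4, Kcnh6, Kcnh7, Kcnh8, Kcns1 and Kcnv1) and 13 inward rectifiers (Kcnj1, Kcnj2, Kcnj3, Kcnj5, Kcnj6, Kcnj8, Kcnj9, Kcnj10, Kcnj11, Kcnj13, Kcnj14, Kcnj15 and Kcnj16). There were also 5 two-pore genes (Kcnk5, Kcnk7, Kcnk10, Kcnk16 and Kcnk18), the calcium-activated Kcnma1, Kcnn1, Kcnn2, Kcnn3 and Kcnn4, and Kcnt1, Kcnt2 and Kcnu1. The 14 unmarked auxiliary genes were Kcnab1, Kcnab2, Kcnab3, Kcne1, Kcne2, Kcne4, Kcnip1, Kcnip2, Kcnip3, Kcnip4, Kcnmb1, Kcnmb2, Kcnmb3 and Kcnrg.

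The distance of 1 kb left some genes close to the limit. The farthest marked start was that of Kcns2, 891 bp from an ESC H3K27me3 peak, followed among H3K27me3 peaks by Kcng1 at 636 bp. Just outside were Kcnj3, 1020 bp from an ESC Ring1b peak, Kcna1, 1219 bp from an NSC H3K27me3 peak, and Kcns1, 1449 bp from an ESC H3K27me3 peak.

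In 9 Kcn genes at least 3 of the 4 ESC lists had a peak at the start. Kcna1 (ENSMUSG00000047976.3), a channel of axons, lies on the minus strand of chromosome 6 from 126586481 to 126595819 (mm9). Its start was inside a Ring1b peak of 3800 bp, and Cbx2 (1600 bp), Ezh2 (2600 bp) and H3K27me3 (3200 bp) peaks began 419, 219 and 219 bp inside the gene. Kcna6 (ENSMUSG00000038077.6) lies on the same strand from 126658347 to 126690680, with Ring1b over 2000 bp, Ezh2 over 1800 bp and H3K27me3 over 3200 bp. Neither of these neighbouring genes had an NSC peak within 1 kb of its start.

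Kcna2 (ENSMUSG00000040724.1) lies on the plus strand of chromosome 3 from 106904485 to 106909797 and encodes another axonal channel. Its start was inside ESC peaks of Ring1b (2400 bp) and H3K27me3 (2800 bp), with Ezh2 (1000 bp) starting 116 bp inside the gene, and inside an NSC H3K27me3 peak of 2000 bp. Kcnc4 (ENSMUSG00000027895.8; chromosome 3, minus strand, 107241221 to 107261816) had Ring1b over 3200 bp, Ezh2 over 2200 bp and H3K27me3 over 3400 bp. In NSCs its H3K27me3 peak was again 3400 bp wide but shifted, reaching 2784 bp upstream and 615 bp downstream of the start, where the ESC peak had reached 1984 bp and 1415 bp. Kcnc2 (ENSMUSG00000035681.6; chromosome 10, plus strand, 111708179 to 111903360) had Ring1b over 3400 bp, Ezh2 over 2400 bp and H3K27me3 over 1600 bp, and no NSC peak at its start.

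Kcnk9 (ENSMUSG00000036760.6; chromosome 15, minus strand, 72342549 to 72376709) encodes an acid-sensitive leak channel and is an imprinted gene in brain. It had the widest Ring1b and H3K27me3 peaks of the Kcn genes, 4400 bp and 4600 bp, which reached 3091 bp and 3291 bp upstream of the start, and an Ezh2 peak of 2400 bp. Its NSC H3K27me3 peak was 2000 bp wide and ended 92 bp before the start. Kcnk13 (ENSMUSG00000045404.8; chromosome 12, plus strand, 101202709 to 101300892), a leak channel best known from microglia, had Ring1b and H3K27me3 over 2600 bp each and Ezh2 over 1600 bp, and no NSC peak.

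Kcnq5 (ENSMUSG00000028033.9; chromosome 1, minus strand, 21388484 to 21952023) had Ring1b over 2800 bp, Ezh2 over 1600 bp and H3K27me3 over 1200 bp, and no NSC peak at its start. Kcnj4 (ENSMUSG00000044216.6; chromosome 15, minus strand, 79314148 to 79335671) had Ring1b over 2400 bp, Ezh2 over 1000 bp and H3K27me3 over 2600 bp. Its NSC Ring1b peak was 1000 bp wide and spanned the same bases as its ESC Ezh2 peak, from 529 bp upstream to 470 bp downstream of the start.

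**Figure D4:**
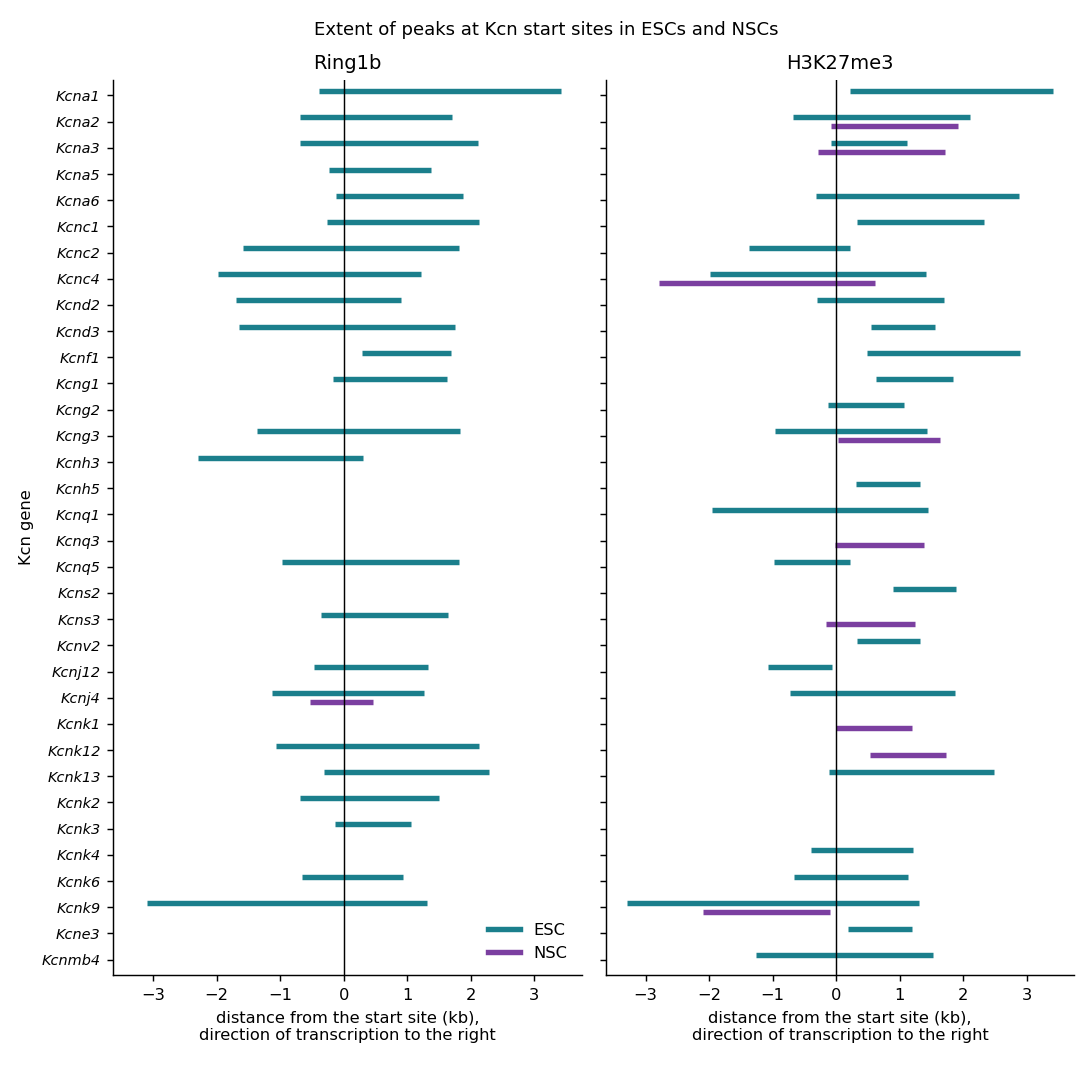
Horizontal lines give the extent of the peak within 1 kb of the start site of the Kcn genes drawn, in kb from the start with transcription to the right, for Ring1b (left) and H3K27me3 (right) in ESCs (teal) and NSCs (purple). In ESCs 23 of the 24 Ring1b peaks drawn hold the start and most run farther downstream than upstream. In NSCs Ring1b remains at Kcnj4 alone, and H3K27me3 is present at 9 of the genes drawn.

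Kcn peaks were of ordinary width. The 27 ESC Ring1b peaks had a median of 2400 bp (range 1200 to 4400 bp), the same as the median at the other genes, where widths ran to 59000 bp. The start lay inside the peak at 25 of 27 genes (92.6%, against 87% of the others), and the peak reached farther downstream than upstream at 23 of 27, as it did at 1359 of the 1733 other genes. The 26 ESC H3K27me3 peaks had a median of 1900 bp (1000 to 4600 bp), against 1800 bp. The 10 NSC H3K27me3 peaks had a median of 1700 bp (1200 to 3400 bp), against 2200 bp. None of the 38 marked Kcn genes had the start of another protein-coding gene within 2 kb, so each peak at a Kcn start could be assigned to 1 gene. Over all other genes, 13.9% had such a neighbour.

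Kcn genes lie close together at a few places. On chromosome 6, Kcna5, Kcna1 and Kcna6 span 208 kb, with starts 110 and 94.9 kb apart. This region held 3 ESC Ring1b peaks, 1 at each start. It held 1 Cbx2, 2 Ezh2 and 2 H3K27me3 peaks in ESCs, all at starts of Kcna1 or Kcna6. In NSCs it held 1 H3K27me3 peak, inside Kcna1 and 1219 bp from its start. Kcna5, a channel of the heart atrium, had Ring1b only.

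On chromosome 3, Kcna3, Kcna2 and Kcna10 span 160 kb, with starts 65.4 and 81.5 kb apart. Kcna3, a channel of T lymphocytes, and Kcna2 had ESC Ring1b, ESC H3K27me3 and NSC H3K27me3, and Kcna10 had no peak. Kcna3 is covered by its ESC Ring1b peak of 2800 bp over 100% of its length, and by its NSC H3K27me3 peak of 2000 bp over 87.4%. The pairs Kcnj9 and Kcnj10, Kcnj5 and Kcnj1, Kcnmb1 and Kcnip1, Kcnj16 and Kcnj2, Kcnk5 and Kcnk16, and Kcne2 and Kcne1 had no peak at any start. Away from the starts, Kcnj9 had an ESC Ring1b peak 2394 bp from its start and Kcnip1 an ESC H3K27me3 peak 150 kb from its start.

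ESCs were then compared with NSCs to ask which Kcn starts kept their peaks on differentiation. Ring1b was nearly gone from Kcn starts in the NSC list. Of the 27 Kcn genes with ESC Ring1b, 26 lost it (96.3%, 81% to 99.9%) and Kcnj4 kept it (3.7%, 0.0937% to 19%), whereas 20.1% of the other genes kept it, just above the Kcn interval. The share of the other genes fell inside the Kcn interval when the start had to lie in the peak (0.101% to 20.4%, against 17.1%), with peaks at least 2 kb wide (0% to 16.8%, against 15.8%) and at CpG-rich starts (0.133% to 26%, against 20.8%). Other genes that kept Ring1b had ESC peaks with a median of 4300 bp, against 2200 bp where it was lost. The 26 Kcn genes that lost it had a median of 2500 bp, and the part of peak width was not tested. None of the 67 Kcn genes without ESC Ring1b gained it (0%, up to 5.36%), against 0.822% of the others. In all, NSC Ring1b marked 1 Kcn gene (1.06%), against 2.39% of the other genes, a value within the Kcn interval of 0.0269% to 5.79%. Among the other excitability genes, 1 of 11 calcium channel, 1 of 15 transmitter receptor, 0 of 3 sodium channel and 0 of 3 partner genes kept Ring1b.

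H3K27me3 was counted in the same way, and its difference from Ring1b was not tested. In NSCs it marked 10 Kcn genes (10.6%, 5.22% to 18.7%), against 2.63% of the others. With peaks at least 2 kb wide the share was 4.26% (1.17% to 10.5%), against 1.53%, which lies inside the Kcn interval. Of the 26 Kcn genes with ESC H3K27me3, 5 kept it (19.2%, 6.55% to 39.4%), against 29.3% of the others, which lies within the Kcn interval. The 5 were Kcna2, Kcna3, Kcnc4, Kcng3 and Kcnk9. All 5 had ESC Ring1b, and 3 had Ezh2. Their ESC H3K27me3 peaks had a median width of 2800 bp (1200 to 4600 bp), against 1600 bp (1000 to 3400 bp) at the 21 Kcn genes that lost it. At the other genes these medians were 3000 and 1800 bp.

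H3K27me3 appeared at 5 of the 68 Kcn genes without it in ESCs (7.35%, 2.43% to 16.3%), against 0.787% of the others, and none of the 4 comparison lists held such a gene (0 of 30 transmitter receptors, 0 of 15 calcium channels, 0 of 11 sodium channels and 0 of 7 partners). The intervals of these lists overlapped that of the Kcn genes, with an upper end of 11.6% for the receptors. Kcns3 (ENSMUSG00000043673.4; chromosome 12, minus strand, 11097008 to 11157648), a modifier subunit, had ESC Ring1b over 2000 bp and NSC H3K27me3 over 1400 bp. Kcnk12 (ENSMUSG00000050138.7; chromosome 17, minus strand, 88145177 to 88197334) had ESC Ring1b over 3200 bp and Ezh2 over 2200 bp, and its NSC H3K27me3 peak of 1200 bp began 534 bp inside the gene.

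Thus 3 of the 5 starts had held Ring1b in ESCs, and the other 2 had no ESC peak. Kcnk1 (ENSMUSG00000033998.8; chromosome 8, plus strand, 128519002 to 128554583), a weak leak channel, had an NSC H3K27me3 peak of 1200 bp that began 1 bp before its start. Kcnq3 (ENSMUSG00000056258.7; chromosome 15, minus strand, 65826733 to 66117786) had one of 1400 bp that began 14 bp before its start. With peaks at least 2 kb wide only, the count of gains fell to 1 of 81 (1.23%), against 0.61%, so it rests on narrow peaks, and the interval (0.0313% to 6.69%) then holds the share of the others.

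The 2 NSC marks never met at a Kcn start. With Kcnj4 the only Kcn gene with NSC Ring1b, they could have met at 1 Kcn start at most. The contrast with other genes was not recomputed under the alternative settings. None of the 10 Kcn genes with NSC H3K27me3 had NSC Ring1b (0%, up to 30.8%), against 37.1% of the 560 other genes with NSC H3K27me3. Nor did any of the 3 calcium channel, 2 sodium channel and 2 partner genes with NSC H3K27me3. Of the 4 transmitter receptor genes with it, Grm8 alone had NSC Ring1b. Among the 10 Kcn genes, the nearest NSC Ring1b peak was 31985 bp away at Kcnc4 and 3198492 bp away at Kcnk9, the extremes. At Kcnj4, conversely, NSC Ring1b remained without H3K27me3, whose nearest peak was 297330 bp away. Over both marks, 26 of the 35 Kcn genes with ESC Ring1b or H3K27me3 had neither in NSCs (74.3%), against 68.9% of the others. The NSC lists were shorter than the ESC lists of the same target, and how far this follows from the depth or threshold of each library was not tested.

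CpG content was compared because PcG peaks lie mainly at CpG-rich starts. The ratio of observed to expected CpG in the 1 kb centred on the start had a median of 0.504 over Kcn genes and 0.559 over the others. A start was called CpG-rich at a GC content of at least 55% and a ratio of at least 0.6, which held for 39 of the 94 Kcn starts (41.5%) and 39.4% of the others. The ratio was thus lower, and the share of CpG-rich starts slightly higher, at Kcn genes than at the others. The 38 marked Kcn genes had a median of 0.719 and 26 CpG-rich starts (68.4%), and the 56 unmarked had 0.390 and 13 (23.2%). At the other genes these shares were 72.5% and 35.4%.

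**Figure D5:**
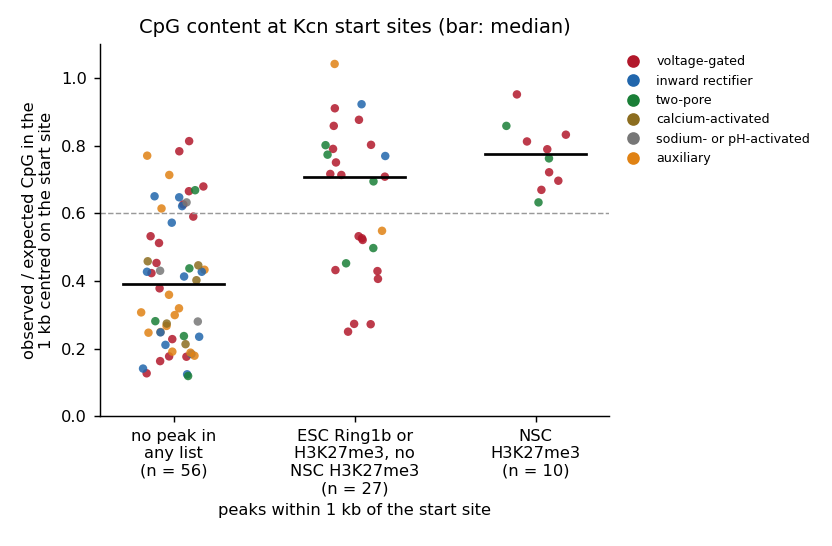
Points are the ratio of observed to expected CpG in the 1 kb centred on the start site of Kcn genes, coloured by class, for genes with no peak in any list, genes with ESC Ring1b or H3K27me3 and no NSC H3K27me3, and genes with NSC H3K27me3. Black bars are medians (0.390, 0.708 and 0.776) and the dashed line is the minimum of 0.6 for a CpG-rich start, and Kcnk15, with Ezh2 only, is not plotted. All 10 genes with NSC H3K27me3 lie above the dashed line.

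Among CpG-rich starts alone, ESC Ring1b marked 19 of 39 Kcn genes (48.7%), against 15.6% of other genes, and ESC H3K27me3 marked 16 (41%), against 11.7%. Among the remaining starts, the 2 counts were 8 of 55 (14.5%), against 3.3%, and 10 of 55 (18.2%), against 3.03%. The Kcn share was thus above that of other genes at both kinds of start. Cbx2 marked none of the 39 CpG-rich Kcn starts (0%, up to 9.03%), against 2.88%, which lies within the Kcn interval.

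All 10 Kcn genes with NSC H3K27me3 had CpG-rich starts (median ratio 0.776), against 73.6% of the 560 other genes. With 10 genes this cannot be told from the share of the others. H3K27me3 was kept at 5 of the 16 CpG-rich Kcn starts (11% to 58.7%) and at 0 of the 10 others (up to 30.8%). Other genes kept it at 30.5% and 26.3%, and both values lay within the Kcn intervals. By class, the median ratio was 0.626 for voltage-gated genes, 0.650 for two-pore genes, 0.427 for inward rectifiers, 0.430 for sodium- or pH-activated genes, 0.402 for calcium-activated genes and 0.313 for auxiliary genes. The 2 classes with the highest medians were also the 2 with the largest shares of marked genes, and the part of CpG content in the differences between classes was not tested. Kcna5, Kcnc2 and Kcnv2 had peaks at starts with ratios of 0.250, 0.272 and 0.273, below the median of the unmarked Kcn genes.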

How the data were processed

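The deposited files are lists of peak positions in mm9, with the start and end of each peak as the authors gave them, 1 list per library, and no other value, so no unit of signal was available. Per the methods of the study, short paired-end tags were aligned, tags in 1 kb windows every 200 bp were tested against input under a negative binomial model, with its size parameter chosen by inspecting the calls, and enriched windows within 1 kb were merged. The methods name Bowtie as the aligner, and the submitters' processing notes name BWA. The 4 inputs were not analysed here, and Cbx7, used by the study to define ESC targets, was not analysed here. Replicates were not pooled, because each group has 1 library.

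Genes, start sites and sequence came from GENCODE vM1 and NCBIM37, the build of the files. The start of a gene record was its most 5′ base, and a peak counted when it lay at most 1000 bp away. Shares carry exact Clopper-Pearson 95% intervals, computed in Python 3.11.15 with numpy 2.4.6 and scipy 1.17.1, and figures used matplotlib 3.10.9. No test between groups was run, since genes are not replicates of a cell type. The counting steps were tested on simulated data. Named in full were genes in at least 3 ESC lists, in both NSC lists (none) or with an NSC peak of Ring1b or H3K27me3 and no ESC peak of that target, and any other marked gene could be named. Unmarked genes were named to account for the members. A few genes enter the counts but are not reported here by name. The members, gene lists and comparisons were chosen with earlier results of these data known. Alternatives were the start inside the peak, 5 kb, any transcript start, peaks of at least 2 kb, adding X, pore-forming genes only and CpG-rich starts only, and 3 others were chosen after seeing the data. They counted 1 gene per symbol, peaks anywhere in the gene, and genes without another start within 2 kb.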

Additional observations from a re-analysis of the deposited data

How the results depend on the processing

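Over 10 alternatives, 90 of 105 recomputed values stayed within the 95% interval of the value reported, and in 103 the Kcn share lay on the same side of the other genes. The 2 exceptions came with peaks counted anywhere in the gene, an alternative chosen after seeing the data, where ESC Cbx2 was 3.19% against 2.5% and gained Ring1b 1.64% against 1.5%. With CpG-rich starts only, the Kcn shares were 48.7% (ESC Ring1b), 0% (Cbx2), 41% (ESC H3K27me3) and 25.6% (NSC H3K27me3), where fewer genes were tested. In the same order, the shares of the other genes were 15.6%, 2.88%, 11.7% and 4.9%, each higher than over all their starts. With the start inside the peak, Cbx2 and all 4 ESC lists fell to 0% and ESC H3K27me3 to 17%. With peaks at least 2 kb wide, Cbx2, all 4 ESC lists, NSC Ring1b and kept Ring1b were 0%, Ezh2 5.32%, ESC H3K27me3 13.8%, NSC H3K27me3 4.26% and gained H3K27me3 1.23%, since narrower peaks were left out. Under that setting the Kcn intervals of Ezh2, NSC H3K27me3, kept Ring1b and gained H3K27me3 came to hold the share of the other genes, and so did that of kept Ring1b with the start inside the peak. No paired analysis was possible because each group has 1 library, and no library could be left out for the same reason. Depth is unknown, and the single Cbx2 and NSC Ring1b genes are too few to rank against other genes.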

Other observations

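Several Kcn genes had peaks inside the gene but more than 1 kb from the start. Kcnq1, which lies in an imprinted domain, had ESC H3K27me3 at its start and, in NSCs, 3 H3K27me3 peaks 74.8, 107 and 139 kb downstream, the first of which overlapped an exon. Kcns1, a modifier subunit, had ESC Ring1b, Ezh2 and H3K27me3 peaks 1.65, 2.45 and 1.45 kb from its start, and Kcnk10, a mechanosensitive leak channel, had ESC Ring1b and H3K27me3 peaks that both began 1.95 kb away. All 5 of these peaks overlapped exons.

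Kcnk3 and Kcnk12, which had ESC Ring1b and no H3K27me3 at the start, each had an ESC H3K27me3 peak of 2000 bp over an exon, 33.1 kb and 49.5 kb from the start. Kcnip3, a calcium-binding partner of A-type channels, had an ESC Ring1b peak 38.2 kb from its annotated start. Cbx2, rare at Kcn starts, had ESC peaks outside exons in Kcnd3, 186 kb from the start, and Kcnn2, 329 kb from the start. Kcnh5 had an NSC Ring1b peak 104 kb from its start, outside exons. These genes were chosen after their values were seen, since the rule for marked genes left out peaks at such distances. The 2 Kcn genes on X, Kcnd1 and Kcne1l, had no peak in any list.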
